A study of Homo sapiens with 4 samples.

Results

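The butyrophilins are a family of membrane proteins of the immunoglobulin superfamily that present cues to T cells. The 9 members studied here are BTN3A1, BTN3A2, BTN3A3, BTN2A1, BTN2A2, BTN1A1, BTNL3, BTNL8 and BTNL9. They were chosen by gene symbol in the platform annotation, with their measured differences between the treated and untreated arrays of this experiment already known, so those differences are given as a description and support nothing further. Each member had 1 transcript cluster, a probe set that summarises 1 locus. The members' clusters are 9 of the 17709 on the array that carry 1 gene symbol. RNA came from SUIT2 cells, an established human cell line. It is generally described as pancreatic cancer, whereas the labels give its cell type as glioblastoma multiforme. The control group (2 arrays) received phosphate-buffered saline, PBS, and the treated group (2 arrays) received fb-PMT at 30 µM, both for 24 h. fb-PMT, a thyroid hormone analog joined to polyethylene glycol, is directed at the hormone binding site of integrin αvβ3, and the study asked what it does to transcripts that mitochondria of cancer cells rely on. The labels do not say that replicates came from separate cultures, so all p-values measure the spread between these arrays, which may be technical.

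In epithelial and tumour cells, BTN3A1 and BTN2A1 form the surface complex by which gamma delta T cells of human blood recognise phosphoantigens, the small isoprenoid intermediates that accumulate when the mevalonate pathway is disturbed. BTN3A1 binds the phosphoantigen with its intracellular domain, BTN2A1 contacts the T cell receptor, and BTN3A2 and BTN3A3 are close copies that pair with BTN3A1. BTNL3 and BTNL8 form an equivalent pair of gut epithelium, BTN2A2 restrains T cell activation, and BTN1A1 takes part in the secretion of milk fat. Genes of the BTN3A group are inducible by interferon, as are those of class I antigen presentation.

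Values are RMA values on the log2 scale, in which 1 unit is a 2-fold difference. The 4 arrays had medians of 6.27 to 6.28 over 21448 transcript clusters, and replicate arrays correlated across clusters with r = 0.995 (control) and 0.996 (fb-PMT). The 95th percentile of the array's 612 negative control probe sets, 7.15 to 7.38 by array, served as background, and clusters under it are called below the negative controls. Of all 21448 clusters, 11820 lay below it on all 4 arrays and 8696 above it on all 4. The epithelial markers KRT8, KRT18, KRT19, KRT7 and EPCAM lay above it on all 4 arrays and CDH1 below it on all 4. Of the glial markers GFAP, OLIG2, SOX10 and S100B, which the glioblastoma label would call for, 0 of 4 lay above it on any array. Above it were 0 of the 4 leukocyte markers measured and 1 of 4 fibroblast markers, COL1A2. The mean log2 value of the 6 epithelial markers was 13.63 to 13.69 on the control arrays and 13.40 to 13.43 on the fb-PMT arrays. In the fit with an intensity trend 1 of the 6 rose and 3 fell, where 1.37% of all clusters rose and 0.513% fell. The part of the shift of these markers in the results was not tested.

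The 3 BTN3A genes were higher on both fb-PMT arrays than on both control arrays, by 2.00-fold to 2.83-fold. The groups overlapped for both BTN2A genes, BTNL9 was 1.66-fold lower, and BTN1A1, BTNL3 and BTNL8 did not reach the negative controls on any array. In limma's fit over all transcript clusters, fb-PMT minus control, 0 of the 9 members passed an adjusted p of 0.05 (Benjamini-Hochberg), where 0.0979% of all clusters passed. The smallest adjusted p among the members was 0.058, for BTN3A2, and 4 of 9 had an unadjusted p under 0.05, as did 11.2% of all clusters (2399 of 21448). When the fit let the variance depend on intensity, the 3 BTN3A genes passed as higher, beside 1.37% of all clusters, and 0 members passed as lower, beside 0.513%. Because this contrast was known when the family was picked, nothing is read from these counts. In bulk RNA a higher value in every cell and a larger share of cells with the transcript cannot be told apart.

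**Figure D1:**
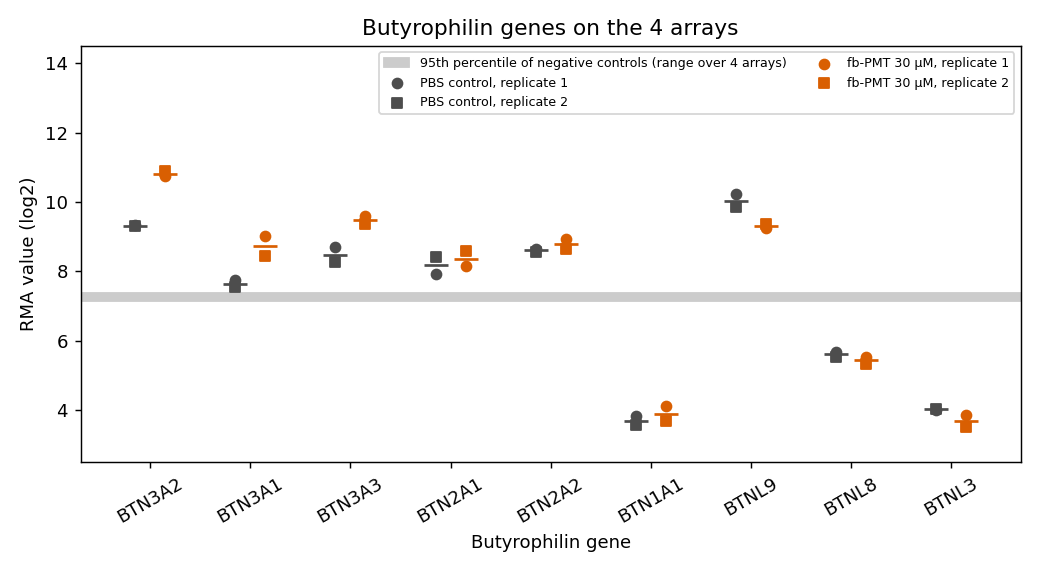
RMA values (log2) of the 9 butyrophilin genes on the 2 PBS control arrays (grey) and the 2 fb-PMT arrays (orange), with group means as short lines and the 95th percentile of the negative controls as a grey band. The BTN3A genes separate upward with fb-PMT and BTNL9 downward, while BTN1A1, BTNL8 and BTNL3 lie under the band.

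BTN3A2, whose product lacks the intracellular phosphoantigen-binding domain of BTN3A1, had the largest difference of the family. Its log2 values were 9.34 and 9.30 with PBS, against 10.74 and 10.91 with fb-PMT. The groups were well apart, since replicates of either group lay much closer to each other than to any array of the other. The log2 difference was 1.50 (SE 0.15, n = 2 arrays per group), or 2.83-fold, and the 4 ways to pair an fb-PMT array with a PBS array gave 1.40 to 1.61. In the order of all 21448 differences, from the largest rise down, it held rank 48.

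BTN3A1, the phosphoantigen sensor itself, had log2 values of 7.75 and 7.55 with PBS, against 9.01 and 8.45 with fb-PMT. Its control values were only just above the negative controls of those arrays (7.38 and 7.22), and the 2 treated arrays differed from each other more than those of BTN3A2. The log2 difference was 1.08 (SE 0.23), or 2.12-fold, with 0.70 to 1.46 over the array pairs and rank 120 among all differences. BTN3A3, the third gene of the group, had log2 values of 8.69 and 8.27 in control cells and 9.60 and 9.36 with fb-PMT. Here the control arrays were the more spread, and the groups still did not overlap. The log2 difference was 1.00 (SE 0.20), or 2.00-fold, with 0.67 to 1.33 over the array pairs and rank 149. The 3 genes are close copies of each other, and signal that probes of one pick up from another was not tested, so their separate values are uncertain.

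Promoter sequences of BTN3A2 and BTN3A3, which were both higher, are shown next as a description. BTN3A1 was also higher but had no promoter entry. RefSeq promoter entries (GRCh38.p14) were matched for 6 of the 9 members, BTN3A2, BTN3A3, BTN2A1, BTN1A1, BTNL8 and BTNL9, with 2 annotated starts for BTN3A2. The following are the 250 bases before the start on the plus strand, 5′ to 3′, for BTN3A2 (the upstream start, chr6:26364948-26365197), BTN3A3 (chr6:26440254-26440503) and, for contrast, BTN2A1 (chr6:26457705-26457954). Capitals mark matches to the interferon regulatory factor core AANNGAAA, to CNAGCAAC, which resembles the X1 box that RFX proteins bind in class I and class II promoters, and to the CCAAT box, on either strand.
BTN3A2: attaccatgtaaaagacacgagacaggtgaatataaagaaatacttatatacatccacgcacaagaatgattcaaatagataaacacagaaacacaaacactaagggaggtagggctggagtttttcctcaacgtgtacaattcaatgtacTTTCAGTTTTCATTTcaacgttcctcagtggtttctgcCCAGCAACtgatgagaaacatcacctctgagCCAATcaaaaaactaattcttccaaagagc
BTN3A3: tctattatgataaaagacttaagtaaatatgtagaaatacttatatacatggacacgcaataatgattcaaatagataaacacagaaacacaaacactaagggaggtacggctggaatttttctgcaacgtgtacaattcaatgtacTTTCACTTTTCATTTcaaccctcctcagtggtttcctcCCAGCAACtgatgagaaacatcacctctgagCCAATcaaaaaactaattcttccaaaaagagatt
BTN2A1: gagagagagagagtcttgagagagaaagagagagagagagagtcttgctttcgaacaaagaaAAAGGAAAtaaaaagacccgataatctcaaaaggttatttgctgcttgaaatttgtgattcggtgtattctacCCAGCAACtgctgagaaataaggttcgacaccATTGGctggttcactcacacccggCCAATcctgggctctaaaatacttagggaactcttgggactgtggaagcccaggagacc

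The BTN3A2 and BTN3A3 windows were 86.3% identical over their alignment and shared an unbroken run of 58 bases that holds both the CNAGCAAC match and the CCAAT box. The CNAGCAAC match began 61 bases before the start in BTN3A2 and 65 in BTN3A3, and the CCAAT box 30 and 34 bases before it. Upstream of these lay 2 matches to AANNGAAA on the minus strand, which overlap by their end base, beginning 99 and 92 bases before the start in BTN3A2 and 103 and 96 in BTN3A3. The letters searched were picked after these sequences had been read.

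BTN2A1, for which the groups overlapped, also held a CNAGCAAC match (115 bases before the start), 2 CCAAT boxes and 1 match to AANNGAAA. Its window was 47.6% identical to that of BTN3A2. BTN1A1 held 2 matches to AANNGAAA and BTNL8 2 CCAAT boxes, while BTNL9 and the downstream start of BTN3A2 held none of the motifs. The STAT motif TTCNNNGAA matched 0 of the members' windows. Of 35116 promoter windows of this length in the table, 20.3% held AANNGAAA, 2.85% CNAGCAAC, 32.0% CCAAT, 6.57% TTCNNNGAA and 1.03% both CNAGCAAC and CCAAT. Among 11 genes of class I antigen presentation with promoter entries, 8 held AANNGAAA in any entry, 1 CNAGCAAC and 0 both CNAGCAAC and CCAAT. A match of letters is a description and does not show that a factor binds there.

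BTN2A1, the partner of BTN3A1 in phosphoantigen recognition, had log2 values of 7.94 and 8.43 with PBS, against 8.15 and 8.60 with fb-PMT. The groups overlapped, and the arrays within each differed by more than the group means did. The log2 difference was 0.19 (SE 0.24), with -0.28 to 0.66 over the array pairs, and it turned to -0.06 without control replicate 1 and -0.04 without fb-PMT replicate 2. BTN2A2 had log2 values of 8.65 and 8.56 in control cells and 8.93 and 8.64 with fb-PMT, a log2 difference of 0.18 (SE 0.17). Its groups overlapped too, by a margin of 0.01 between fb-PMT replicate 2 and control replicate 1. Both BTN2A genes were above the negative controls on all 4 arrays, and the intervals over the array pairs reach below 0.

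BTN1A1, the milk fat butyrophilin, was below the negative controls everywhere, with log2 values of 3.82 and 3.57 in control cells and 4.13 and 3.69 with fb-PMT. The gut pair was below them as well. BTNL8 had log2 values of 5.69 and 5.54 in control cells and 5.54 and 5.34 with fb-PMT, and BTNL3 had 4.02 and 4.05 against 3.87 and 3.52. No fold is given for these 3 genes, since values in this range do not show expression.

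BTNL9, a family member whose role is less well defined, was the one member above the negative controls that was lower with fb-PMT. Its log2 values were 10.23 and 9.86 with PBS, against 9.26 and 9.36 with fb-PMT. The fb-PMT arrays were close to each other and both below the control arrays, which differed by more. The log2 difference was -0.73 (SE 0.18), or 1.66-fold lower, with -0.97 to -0.50 over the array pairs, and 1.08% of all clusters had a lower difference.

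**Figure D2:**
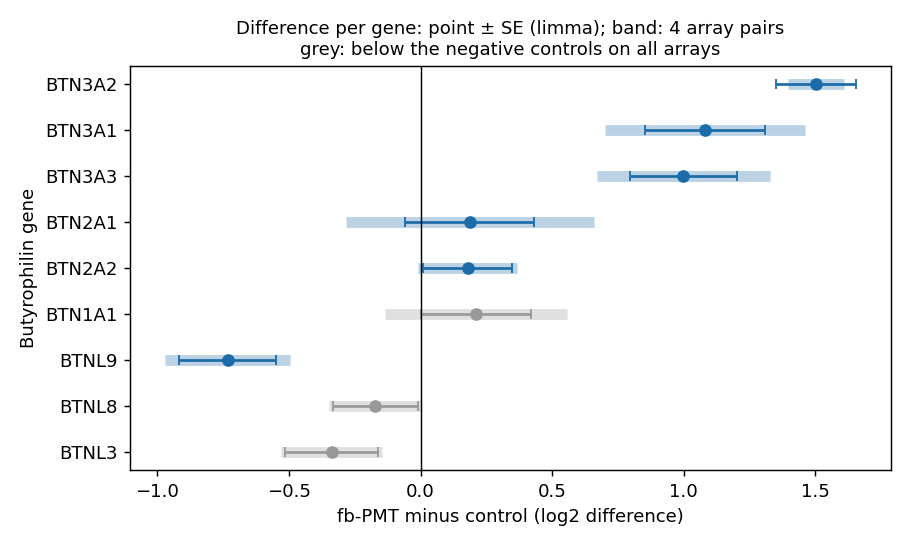
Log2 difference, fb-PMT minus control, of each butyrophilin gene with its standard error from limma (bars), the range over the 4 pairings of an fb-PMT with a PBS array (bands), and grey for genes under the negative controls throughout. The BTN3A differences run from 1.00 to 1.50, those of BTN2A1 and BTN2A2 have bands that cross 0, and that of BTNL9 is -0.73.

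Across the family 3 of 9 members, the BTN3A genes, had no overlap and higher values with fb-PMT, as did 20.2% of all clusters, and 2 of 9, BTNL9 and BTNL3, had no overlap and lower values, as did 22.3%. The median log2 difference was 0.19 over the 9 members, 3 of them below the negative controls on all arrays, and -0.02 over all clusters.

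The profile most like that of BTN3A2 over the 4 arrays, by the root mean square distance between log2 values centred on each gene's mean, was that of ASS1, the argininosuccinate synthase of arginine synthesis (distance 0.048). CARD16, a CASP1-like gene, followed at 0.057, then IFIT3, an interferon-induced gene, at 0.058, the pseudokinase gene TRIB2 at 0.062 and CASP1, the inflammatory caspase, at 0.065. With PBS alone, CASP1 and TRIB2 lay below the negative controls. BTN3A3 lay at 0.32 (rank 115 among named genes) and BTN3A1 at 0.34 (rank 136). This distance depends on the size of the difference, which was 1.54 (CASP1) to 1.61 (CARD16) in the 5 nearest genes and 1.50 in BTN3A2. The differences of BTN3A1 (1.08) and BTN3A3 (1.00) were smaller and their replicates more spread, so they could not lie as near. The order is therefore no result about the family.

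On chromosome 6 the members lie in the RefSeq order BTN3A2, BTN2A2, BTN3A1, BTN3A3, BTN2A1 and BTN1A1, with the pseudogene BTN2A3P between BTN3A1 and BTN3A3. BTN2A2, at 0.18, thus lies between BTN3A2 and BTN3A1. BTN2A3P had a log2 difference of 0.32 with no overlap between the groups, but did not reach the negative controls on any array. Of the 11 named genes within and beside this run, taking 5 on each side, 0 passed in limma, where 0.0979% of all clusters did. With the intensity trend 0 passed, where 1.37% of all clusters rose and 0.513% fell. An unadjusted p under 0.05 was found for 0 of the 11, against 11.2% of all clusters. The log2 differences of the 11 ran from -0.30 to 0.32. Among those above the negative controls, HMGN4, a nucleosome-binding protein gene, was at 0.26 (-0.04 without fb-PMT replicate 2), and the histone genes H3C7 at 0.21, H4C8 at -0.12 and H2BC11 at -0.20.

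The BTNL genes lie together on chromosome 5. Their 10 neighbours had log2 differences of -0.30 to 0.13. Of the 10, 0 passed in limma, where 0.0979% of all clusters did. With the intensity trend 0 passed, where 1.37% of all clusters rose and 0.513% fell. An unadjusted p under 0.05 was found for 0 of the 10, against 11.2% of all clusters. Among these neighbours only the zinc finger gene ZFP62 (-0.18) and TRIM41, a ubiquitin ligase gene (-0.23), were above the negative controls on at least 2 arrays.

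**Figure D3:**
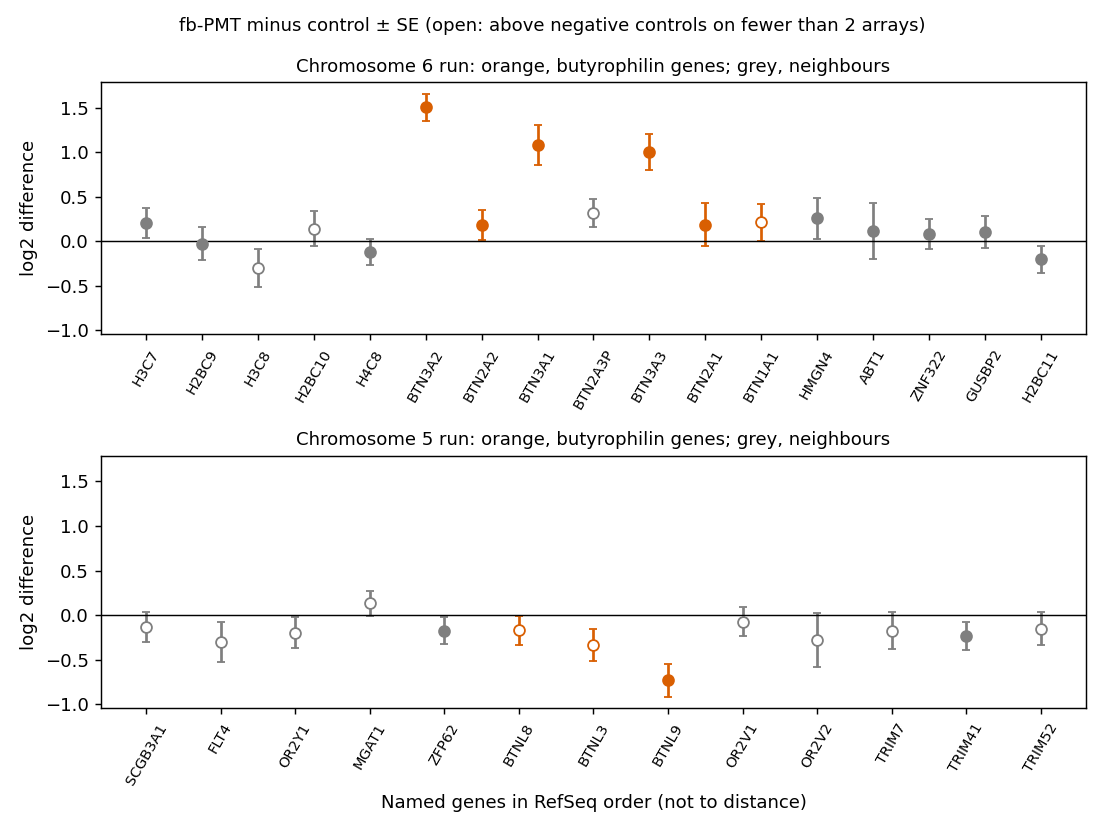
Log2 difference, fb-PMT minus control, with its standard error for the butyrophilin genes (orange) and their named neighbours (grey) in RefSeq order on chromosomes 6 and 5, with open symbols for genes above the negative controls on fewer than 2 arrays. The 3 BTN3A genes stand between 1.00 and 1.50, with BTN2A2 and BTN2A1 among them at 0.18 and 0.19, and BTNL9 is the lowest of its run.

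Among 20 reported regulators of butyrophilin genes, 18 were measured, and 1 rose and 0 fell in limma's test, against 2 risen and 0 fallen with an intensity trend. Of all clusters 0.0979% passed in the first fit, and 1.37% rose and 0.513% fell in the second. The one that rose was IRF1, an interferon-responsive transcription factor, with log2 values of 7.83 and 7.64 in control cells and 10.35 and 10.56 with fb-PMT (difference 2.72, SE 0.17, limma's adjusted p = 0.0179). The difference held at 2.61 to 2.82 with 1 array left out, but the adjusted p was 0.0421 when control replicate 1 was left out, 0.0582 for control replicate 2, and 0.268 and 0.284 for fb-PMT replicates 1 and 2. ZNF217, a repressor reported to act on BTN3A levels, was at 0.88 (SE 0.18, adjusted p = 0.246) and was the second to pass with the trend. RFX5, a subunit of the complex that binds the X box, was at 0.56 (adjusted p = 0.408), with 9.38 and 9.03 against 9.61 and 9.91. NLRC5, the coactivator of class I genes, had log2 values of 3.47 at most, and CIITA, its class II relative, 4.54 to 5.48. Both lay below the negative controls throughout, so no change in either was detectable here. The lowest regulators among those above the negative controls were PRKAA2, a catalytic subunit of AMP-activated kinase, at -0.38 and RUNX1, a transcription factor, at -0.20 (0.0011 without fb-PMT replicate 2), neither past the test.

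Genes of class I antigen presentation, listed as controlled by NLRC5, had a median log2 difference of 0.99. The median was 0.19 in the butyrophilin family and -0.02 over all clusters. These sets are unlike, since all 11 class I genes lay above the negative controls on at least 2 arrays, but only 6 of the 9 butyrophilin members did. Control by NLRC5 in these cells was not tested. In all 11 measured of 13 listed, the groups did not overlap and fb-PMT was the higher, as in 20.2% of all clusters. One rose in limma's test, the immunoproteasome subunit gene PSMB9 (difference 1.77, adjusted p = 0.0345), and 9 rose with an intensity trend, where 0.0979% and 1.37% of all clusters did. Without any 1 of the 4 arrays PSMB9 kept a difference of 1.75 to 1.80 and missed the threshold, with an adjusted p of 0.142 and 0.0979 when control replicate 1 or 2 was left out, and of 0.441 and 0.482 when fb-PMT replicate 1 or 2 was. PSMB10, another such subunit, had the largest difference, 1.89 (adjusted p = 0.186), with control arrays at 8.33 and 9.22 and fb-PMT arrays at 10.47 and 10.87. None of the 11 was lower.

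Isoprenoid pathway genes, whose products include the phosphoantigens, had a median difference of -0.0047 over 10 measured of 12 listed. In limma 0 passed, where 0.0979% of all clusters did, and 0 with the intensity trend, where 1.37% rose and 0.513% fell. An unadjusted p under 0.05 was found for 1 of 10, near the 11.2% of all clusters. FDPS, the farnesyl diphosphate synthase that consumes phosphoantigen, was at 0.45 (SE 0.16, adjusted p = 0.403), with 12.76 and 12.84 in control cells against 13.15 and 13.35. HMGCS1, an early enzyme, was at 0.38, MVK, mevalonate kinase, at -0.25, and LSS, of the sterol branch, at -0.37.

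Of 9 proteins reported to act with BTN3A1, all were measured by transcript, with a median difference of -0.074. In limma 0 passed, where 0.0979% of all clusters did, and 0 with the intensity trend, where 1.37% rose and 0.513% fell. An unadjusted p under 0.05 was found for 3 of 9, against 11.2% of all clusters. These were TBK1, RHOB and ABCA1, the last of which lay below the negative controls on every array. The kinase gene TBK1 was at 0.49 (SE 0.16, adjusted p = 0.386) and STING1, an adaptor of cytosolic DNA sensing, at 0.30. RHOB, a small GTPase, was at -0.45 (SE 0.16, adjusted p = 0.395) and the DNA sensor gene CGAS at -0.29, which ranged from -0.48 to -0.10 with 1 array left out. The transcripts of PPL, a cytolinker, ABCA1, a lipid exporter, APOA1, its acceptor, and IRF3, a target of TBK1, did not reach the negative controls on any array. Of the related genes of the butyrophilin and B7 families, 11 of 13 were measured, each by 1 cluster. ICOSLG has 2 clusters, of which only the first was read. The negative controls exceeded each cluster read on every array. In limma 0 of these 11 passed in either fit, beside the same shares of all clusters. An unadjusted p under 0.05 was found for 0 of the 11, against 11.2% of all clusters.

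**Figure D4:**
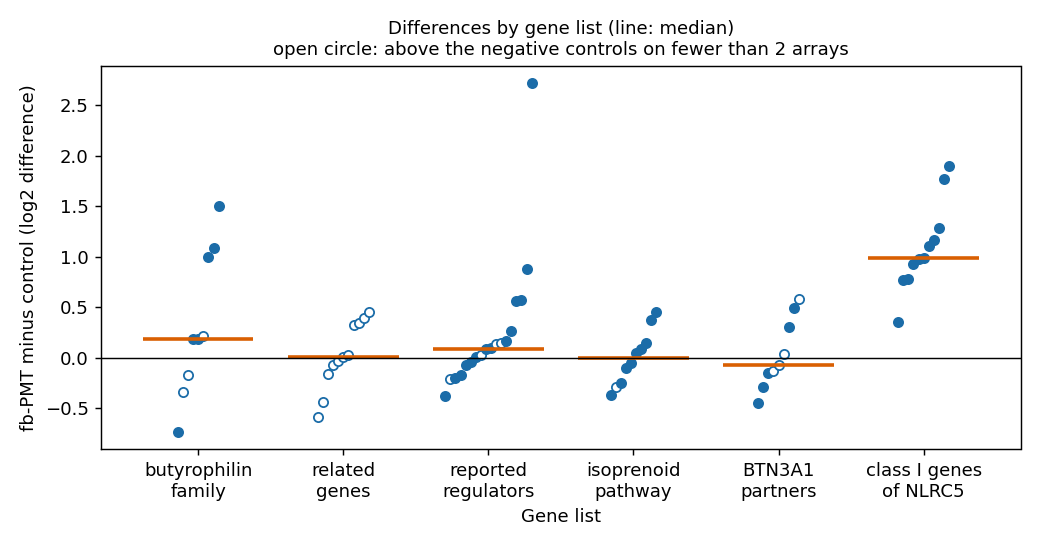
Log2 difference, fb-PMT minus control, of each measured gene in the butyrophilin family and 5 other gene lists, with list medians as orange lines and open circles for genes above the negative controls on fewer than 2 arrays. The medians are 0.19 for the butyrophilin family, 0.99 for the class I genes and -0.074 to 0.089 for the other 4 lists.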

How the data were processed

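The submitters' processing notes name RMA and Transcriptome Analysis Console 4.0.1.36, and the authors deposited the resulting log2 values, 1 per probe set. Which variant of RMA and which genome build were used is not given in the sources used here. RMA compresses changes near background and would hide a change common to most transcripts. Of 24351 probe sets, 2903 controls were left out and 21448 transcript clusters tested, of which 17709 carry 1 gene symbol. The number of arrays limits the precision (median standard error of a log2 difference 0.175).

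The fit over all clusters used lmFit and eBayes of limma 3.58.1 under R 4.3.3 (no covariate, 2 residual and 3.72 prior degrees of freedom), two-sided, with Benjamini-Hochberg adjustment over all clusters and a threshold of 0.05. The fit was checked on simulated data. Members, lists and the naming rule were chosen with earlier results of these data known. The rule names all members, up to 2 highest and 2 lowest genes of each list above the negative controls on at least 2 arrays, the regulators IRF1, NLRC5, RFX5 and CIITA, and the 5 profiles nearest to BTN3A2. Genes without a named cluster were not analysed here. Promoters were read from RefSeq and aligned globally with Biopython 1.88. The alternatives were an intensity trend, array weights, filters on low values, other normalizations, replicate number as a block, another threshold and leaving out each array.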

Additional observations from a re-analysis of the deposited data

How the results depend on the processing

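The counts of clusters and of members past the threshold moved with the variance model and the filter. Over all clusters, 21 higher and 0 lower became 293 and 110 with an intensity trend, 286 and 108 with robust variances added, 216 and 73 with only clusters above the negative controls, 61 and 6 without the lowest 30%, 42 and 2 with only named clusters, and 65 and 8 at an adjusted p of 0.1. The members past the threshold, 0 in the first fit, were 3 with either trend and above the negative controls, and 1 without the lowest 30%, with only named clusters and at 0.1, all higher. With the replicate number as a block the higher clusters were 1 and the members 0. The replicate numbers are not known to pair the arrays, and the deviations of same-numbered arrays correlated with r = 0.042. The block also ended the calls of IRF1 (adjusted p = 0.0814), PSMB9 (adjusted p = 0.144) and CARD16 (adjusted p = 0.167), the 3 named genes that passed in the first limma fit. CARD16 missed it too after renewed quantile normalization (adjusted p = 0.0536) and without any 1 array. Leaving out 1 array gave 9 higher clusters without control replicate 1, 5 without control replicate 2 and 1 without either fb-PMT array, and 0 members.

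The differences of the BTN3A genes, BTN2A2, BTNL3, BTNL8 and BTNL9 kept their direction under every alternative in which they were tested, with 1.42 to 1.59 for BTN3A2, 0.800 to 1.363 for BTN3A1, 0.79 to 1.21 for BTN3A3 and -0.92 to -0.55 for BTNL9. The adjusted p ran from 0.000237 to 0.536 for BTN3A2 and from 0.0512 to 0.711 for BTNL9. Leaving out 1 array moved BTN2A1 from -0.059 to 0.43 and BTN1A1 from -0.0077 to 0.43. It also moved NLRC5 from -0.22 to 0.26, CIITA from -0.32 to 0.61, RUNX1 from -0.41 to 0.0011 and HMGN4 from -0.041 to 0.56. These turned direction there, and the cause was not tested. Signal over background limits BTN1A1, BTNL3 and BTNL8.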
